A study of Mus musculus with 6 samples.

Results

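The alpha-arrestins and the transcription factors that couple some of them to glucose were followed in neural stem cells (NSC) of the mouse. The 7 genes were *Arrdc1*, *Arrdc2*, *Arrdc3*, *Arrdc4*, *Txnip*, *Mlxip* and *Mlxipl*, out of 50686 gene identifiers counted. They were chosen from the data, since *Arrdc4* had the largest named decrease between the groups compared here and a spread between single libraries, and the other 6 genes were added by family and function. The difference between these groups and the spread between libraries are therefore given for the 7 genes as a description. Where the fit over all genes called any of them, this is stated beside its background and supports nothing.

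RNASeq was performed on 2 cultures of NSC and 2 cultures labelled NSC Bmi1Over, and H3K27me3, the histone mark deposited by Polycomb repressive complex 2, was mapped by ChIPSeq in a single library of each kind. NSC were primary cultures prepared from wild-type embryos at E16.5, and NSC Bmi1Over were prepared in the same way from embryos of the genotype *STOPFloxBmi1;NestinCre*, in which Cre driven by the *Nestin* promoter releases a *Bmi1* transgene. Cells came from the subventricular zone of the cerebral hemispheres, grew with EGF and FGF, and were kept as neurospheres or as an adherent monolayer. The format is not given per library. The mGIC samples of the series were not analysed here.

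Between 18112100 and 61353076 reads were counted on genes per library. Counts were expressed as CPM, counts relative to the size of the library, with normalisation factors by the trimmed mean of M-values (TMM), so that a CPM value compares 1 gene between libraries. *Bmi1* itself stood at 133 and 124 CPM in the NSC libraries and at 119 and 113 CPM in those labelled NSC Bmi1Over, so the transgene was not visible as a higher *Bmi1* count, and each direction below is that of the labels. Markers of neural stem cells summed to between 6068 and 6764 CPM, with *Nes* between 915 and 1148 CPM. Markers of mesenchymal, microglial, endothelial and erythroid cells summed to at most 5.53 CPM each, and *Cldn5* and the 4 globin genes on the erythroid list were at 0. Neuronal markers summed to 971 and 946 CPM in NSC against 1012 and 926 CPM, with *Syt1* called higher. Astrocyte markers summed to 450 and 416 CPM against 369 and 441 CPM, with *Aldh1l1* called lower. Both of these sums overlapped between the groups. Markers of the oligodendrocyte lineage summed to 1062 and 1245 CPM in NSC against 1281 and 1466 CPM, without a called gene. The highest single values were 919 CPM for *Map2* among the neuronal markers and 1007 CPM for *Olig2* in the oligodendrocyte lineage. *Gfap*, on the astrocyte list, reached at most 0.770 CPM. The part that these marker differences play in the results below was not tested.

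Arrestins are adaptor proteins with a characteristic curved fold. The alpha-arrestins carry short proline-rich motifs in their tails that recruit ubiquitin ligases of the Nedd4 family, and through these they send receptors and transporters at the cell surface into endosomes. *Txnip* encodes a family member best known for binding thioredoxin and for slowing glucose uptake, and its transcription is a classical read-out of intracellular glucose phosphates. That signal is carried by MondoA, the product of *Mlxip*, and by ChREBP, the product of *Mlxipl*, each of which binds DNA together with Mlx at carbohydrate response elements. *Arrdc4* is the other alpha-arrestin known to follow this route.

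The start sites of *Arrdc4*, *Txnip* and *Arrdc3*, which had lower levels in the libraries labelled NSC Bmi1Over, and of *Mlxipl*, which had an H3K27me3 peak over its start, are shown first, because carbohydrate response elements lie close to the start of their target genes. The sequences were taken from RefSeq for the build GRCm38.p6 and run 5′ to 3′ on the strand of the gene over the 250 bp before a transcription start site. Capitals mark the motifs that were searched, namely the E-box CACGTG, the CCAAT box on either strand (CCAAT or ATTGG), and the carbohydrate response element. The last was taken as a pair of E-boxes 5 bases apart with at most 2 mismatches over their 12 fixed bases, so that a perfect one would also count as E-boxes. The windows lie at chr7:68749239-68749488 on the minus strand for *Arrdc4*, and on the plus strand at chr3:96557707-96557956 for *Txnip*, at chr13:80883134-80883383 for *Arrdc3* and at chr5:135089640-135089889 for *Mlxipl*.
Arrdc4: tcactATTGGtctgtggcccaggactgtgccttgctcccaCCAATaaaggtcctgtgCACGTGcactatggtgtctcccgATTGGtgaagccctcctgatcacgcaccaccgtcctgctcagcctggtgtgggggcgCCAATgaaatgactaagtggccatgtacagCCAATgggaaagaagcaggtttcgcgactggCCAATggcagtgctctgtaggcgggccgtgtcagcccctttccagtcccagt
Txnip: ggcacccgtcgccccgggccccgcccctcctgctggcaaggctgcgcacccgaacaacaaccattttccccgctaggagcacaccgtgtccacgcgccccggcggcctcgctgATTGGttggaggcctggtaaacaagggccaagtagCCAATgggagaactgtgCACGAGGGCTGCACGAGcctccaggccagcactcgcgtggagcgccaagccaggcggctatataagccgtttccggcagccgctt
Arrdc3: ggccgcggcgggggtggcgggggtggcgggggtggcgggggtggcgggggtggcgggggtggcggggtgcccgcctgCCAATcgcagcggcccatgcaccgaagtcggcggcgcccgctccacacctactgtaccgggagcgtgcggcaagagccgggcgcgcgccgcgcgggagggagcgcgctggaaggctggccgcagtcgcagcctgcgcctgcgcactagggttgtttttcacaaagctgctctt
Mlxipl: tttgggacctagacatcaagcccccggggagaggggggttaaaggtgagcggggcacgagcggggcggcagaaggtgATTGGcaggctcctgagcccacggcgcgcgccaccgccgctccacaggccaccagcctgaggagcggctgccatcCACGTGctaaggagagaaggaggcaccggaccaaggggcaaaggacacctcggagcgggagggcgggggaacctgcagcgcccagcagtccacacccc

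The window of *Arrdc4* held 6 CCAAT boxes, spread from 245 to 48 bp before the start, and a single E-box 193 to 188 bp before it. At least 5 CCAAT boxes were present in 0.213% of all 32851 windows of this length, and an E-box in 6.02% of them. No carbohydrate response element was matched in these 250 bp of *Arrdc4* under the mismatch limit, which says nothing of the sequence outside the window. The window of *Txnip* held a carbohydrate response element with 2 mismatches 85 to 69 bp before the start, and 2 CCAAT boxes. Such an element was matched in 256 windows, or 0.779% of all. *Mlxipl* had a single E-box and a single CCAAT box, and *Arrdc3* had 1 CCAAT box. Of the windows not printed, that of *Arrdc2* held 3 CCAAT boxes, that of *Mlxip* held 2, and that of *Arrdc1* held none of the motifs. At least 1 CCAAT box was present in 33.8% of all windows, at least 2 in 10.1% and at least 3 in 2.79%. Further annotated start sites of *Mlxipl* and *Arrdc3* gave 3 more windows, in which only the CCAAT box of *Arrdc3* was seen again. These matches are letters in a window, and binding was not measured.

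The levels of the 7 genes spanned a wide range, and those of *Arrdc3*, *Arrdc4* and *Txnip* were lower in the libraries labelled NSC Bmi1Over. All 7 genes passed the filter on low counts. Levels of different genes are compared here as RPKM, in which CPM is divided by the exon length of the gene in kilobases. In NSC, *Arrdc3* was the most abundant with 18.2 and 13.6 RPKM in replicates 1 and 2. *Arrdc4* followed with 8.59 and 4.67 RPKM, *Txnip* with 6.80 and 2.94 RPKM and *Mlxip* with 4.53 and 5.09 RPKM, and the ranges of these 3 genes overlapped, so that their order was not resolved. *Arrdc2* lay below them at 2.47 and 2.53 RPKM, *Arrdc1* at 0.770 and 0.930 RPKM, and *Mlxipl*, the factor that is abundant in liver and fat, was the lowest at 0.143 and 0.193 RPKM. In the libraries labelled NSC Bmi1Over the order changed below *Arrdc3*, which stood at 9.03 and 11.03 RPKM. There *Mlxip* (4.29 and 5.42 RPKM) and *Arrdc2* (3.08 and 3.15 RPKM) lay above *Arrdc4* (2.57 and 2.92 RPKM) and *Txnip* (1.72 and 2.67 RPKM), of which the last pair overlapped. Reads shared between *Txnip* and an antisense gene were not counted here, and from the sum of the stranded columns it was 2.34 and 3.61 RPKM, a range that overlaps those of *Arrdc2* and *Arrdc4*. *Arrdc1* stood at 1.00 and 0.948 RPKM and *Mlxipl* at 0.0825 and 0.218 RPKM. In such bulk samples, fewer cells of a kind and less RNA per cell cannot be told apart.

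**Figure D1:**
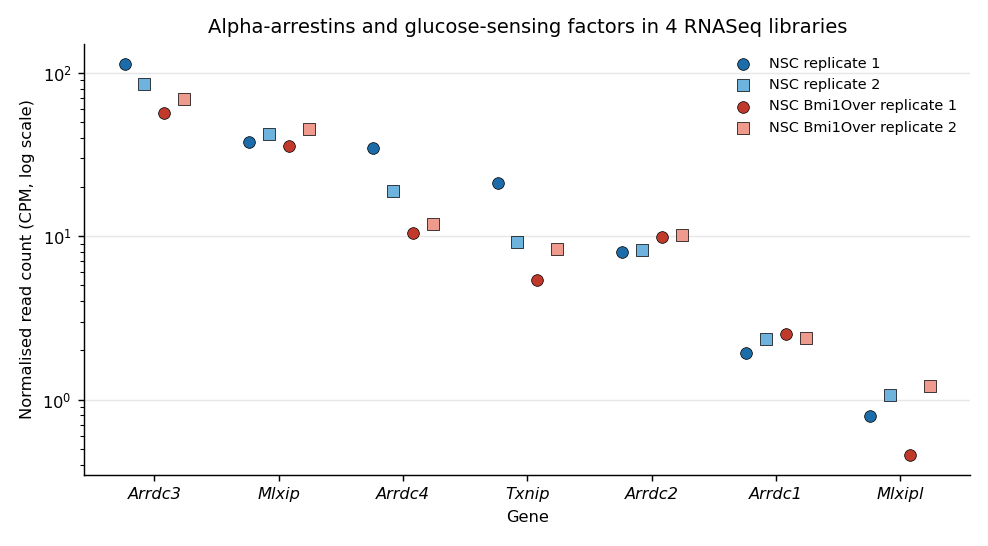
Normalised read counts (CPM, log scale) of the 7 genes in the 4 RNASeq libraries, with a point for each library and genes ordered by their mean. *Arrdc4* and *Txnip* are highest in NSC replicate 1 (34.7 and 21.2 CPM) with NSC replicate 2 in between, while *Arrdc2* and *Mlxip* stay within a narrow band.

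*Arrdc4*, an adaptor for Nedd4 ligases that is also implicated in the removal of glucose transporters from the membrane, lies on the minus strand at chr7:68736995-68749241. Its raw counts were 1095 and 477 in the NSC libraries and 182 and 675 in those labelled NSC Bmi1Over, which corresponded to 34.7 and 18.9 CPM and to 10.4 and 11.8 CPM. The groups did not overlap, and the NSC cultures differed from each other by 1.84-fold while the other pair differed by 1.14-fold. The group means were 26.8 ± 11.2 and 11.1 ± 1.00 CPM (SD, n = 2 each), a log2 fold change of -1.26 with a standard error of 0.26. Within NSC, the log2 ratio of replicate 2 to replicate 1 was -0.86. That spread was part of the reason for the choice of *Arrdc4*, so its rank is a description. Of the 15521 genes tested, 0.863% differed at least as much between the NSC cultures, against 56.5% for the difference of *Arrdc4* between the cultures labelled NSC Bmi1Over. Without NSC replicate 1 the log2 fold change was -0.76, and without NSC replicate 2 it was -1.64.

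*Txnip*, on the plus strand at chr3:96557957-96561883, varied more between cultures. Its raw counts were 670 and 232 in the NSC libraries and 94 and 477 in those labelled NSC Bmi1Over, or 21.2 and 9.18 CPM against 5.37 and 8.35 CPM. The groups did not overlap, but NSC replicate 2 lay far closer to both libraries labelled NSC Bmi1Over than to NSC replicate 1. The means were 15.2 ± 8.52 and 6.86 ± 2.11 CPM (SD, n = 2 each), with a log2 fold change of -1.12 and a standard error of 0.37. NSC replicate 1 exceeded NSC replicate 2 by 2.31-fold. The log2 ratio of replicate 2 to replicate 1 was -1.17, a size that 0.174% of the genes tested reached. Without NSC replicate 1 the log2 fold change was -0.40, and without NSC replicate 2 it was -1.61.

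The count of *Txnip* also carries a limit from its locus. The antisense gene *Gm15441*, at chr3:96555765-96566801 on the minus strand, overlaps all 3927 bp of *Txnip*, and the library kit does not mark the strand, so reads from the pair cannot be told apart. Reads ambiguous between both genes were dropped, which left 72.6% of the *Txnip* reads that the sum of the stranded columns contains. In that sum *Txnip* stood at 29.7 and 12.6 CPM in the NSC libraries and at 7.31 and 11.3 CPM in those labelled NSC Bmi1Over. The order of the libraries was the same, and the log2 fold change was -1.15.

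*Arrdc3*, an alpha-arrestin known for acting on receptors at the cell surface and on integrin beta4, lies on the plus strand at chr13:80883384-80896042. Its levels were 114 and 85.2 CPM in the NSC libraries and 56.6 and 69.1 CPM in those labelled NSC Bmi1Over. The groups did not overlap and the cultures within a group differed by 1.34-fold and 1.22-fold, less than for *Txnip*. The means were 99.5 ± 20.2 and 62.8 ± 8.83 CPM (SD, n = 2 each), with a log2 fold change of -0.66 and a standard error of 0.17. Leaving out each culture in turn moved it between -0.86 and -0.44. The gene *1700023H06Rik* overlaps 1301 bp of *Arrdc3* on the other strand, though no read was lost to it, as the unstranded count equalled the sum of the stranded columns.

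The other alpha-arrestins had slightly higher levels in the libraries labelled NSC Bmi1Over. *Arrdc2*, at chr8:70835129-70839720 on the minus strand, stood at 7.99 and 8.19 CPM in the NSC libraries and at 9.94 and 10.2 CPM in those labelled NSC Bmi1Over. Both groups were tight and did not overlap, with a log2 fold change of 0.32 and a standard error of 0.18. *Arrdc1*, whose product is known for driving the budding of vesicles at the plasma membrane, lies at chr2:24925352-24935252 on the minus strand and was measured with few reads, 61 and 59 in the NSC libraries and 44 and 136 in those labelled NSC Bmi1Over. These were 1.93 and 2.33 CPM against 2.51 and 2.38 CPM, with a log2 fold change of 0.20 and a standard error of 0.26. The gap between the groups of *Arrdc1* was smaller than the distance between the NSC cultures. With library size alone in place of TMM the log2 fold change was 0.17 for *Arrdc2* and 0.04 for *Arrdc1*, and that of the median gene went from -0.01 to -0.17.

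The glucose-sensing factors had log2 fold changes near 0 in the fit to all 4 libraries. *Mlxip*, at chr5:123394798-123457932 on the plus strand, stood at 37.7 and 42.4 CPM in the NSC libraries and at 35.7 and 45.2 CPM in those labelled NSC Bmi1Over. The groups overlapped, with a log2 fold change of 0.02 and a standard error of 0.15 that became -0.13 with library size alone. *Mlxipl*, at chr5:135089890-135138382 on the plus strand, was read 25 and 27 times in NSC, and 8 and 69 times in the libraries labelled NSC Bmi1Over, which were 0.792 and 1.07 CPM against 0.457 and 1.21 CPM. The lowest and the highest value both came from libraries labelled NSC Bmi1Over, which differed by 2.64-fold. The log2 fold change of 0.01 had a standard error of 0.43 and ran from -1.004 to 0.39 when a culture was left out, so that no difference was detectable at this depth. Antisense genes overlap parts of both, namely *Gm15747* at *Mlxip* and *Gm43500* at *Mlxipl*, and the unstranded counts kept 99.3% and 97.0% of the stranded sums.

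**Figure D2:**
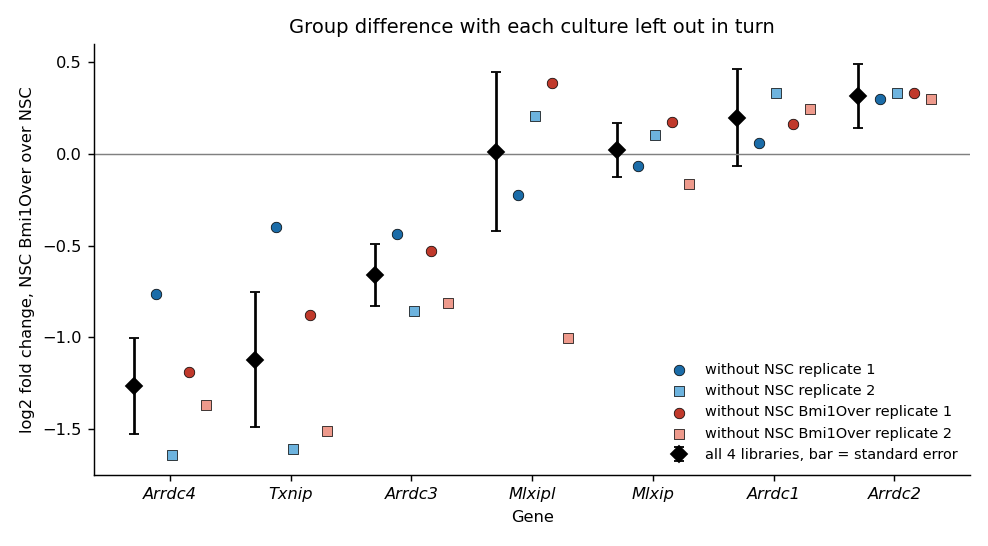
Log2 fold change of the 7 genes, NSC Bmi1Over over NSC. Black diamonds give the fit to all 4 libraries with its standard error, and coloured points the fit without the named culture. Without NSC replicate 1, *Arrdc4* moves from -1.26 to -0.76 and *Txnip* from -1.12 to -0.40, and without NSC Bmi1Over replicate 2 *Mlxipl* moves to -1.004.

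A gene was called when its p from edgeR's quasi-likelihood test, adjusted by the Benjamini-Hochberg method over all genes tested, was under 0.05. Of the 7 genes 1, *Arrdc4*, was called, and it was chosen on this contrast, so nothing is read from that count. Over all genes 2.15% were called, 0.122% as lower and 2.03% as higher. The call of *Arrdc4* was lost without NSC replicate 1 and without NSC Bmi1Over replicate 2, and also with DESeq2's size factors, with stranded sums, with protein-coding genes only and with a minimum of 1 CPM in 2 libraries. In those 4 settings its log2 fold change stayed between -1.26 and -1.25, so that the value hardly moved while its adjusted p crossed the threshold. *Arrdc3*, *Arrdc4* and *Txnip* did not overlap between the groups on the lower side, as 30% of all genes tested did, and *Arrdc1* and *Arrdc2* on the higher side, as 29% did. With 2 libraries against 2, the smallest 2-sided p that an exact permutation test can give for a single gene is 0.333.

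The same order of the 4 libraries was seen in the 3 alpha-arrestins with lower levels. NSC replicate 1 was highest, NSC replicate 2 came next, and both libraries labelled NSC Bmi1Over lay below. Of all genes tested, 3541 had this order, or 22.8%. To find the genes most like *Arrdc4* and *Txnip*, the log2 values of each gene were centred on their mean over the 4 libraries, and the Euclidean distance to the reference gene was taken over the 10882 genes averaging 5 CPM or more. Nearest to *Arrdc4* were *Bhlhe40*, a basic helix-loop-helix repressor (distance 0.119), *Egr2*, an immediate early zinc finger factor (0.156), *Fam162a* (0.301), *Mxi1*, a Max-binding antagonist of Myc (0.319), and *Pgk1*, the glycolytic phosphoglycerate kinase (0.345). *Bhlhe40* stood at 122 and 67.5 CPM in the NSC libraries and at 41.1 and 46.1 CPM in those labelled NSC Bmi1Over. *Txnip* ranked 12 on this list and *Arrdc3* ranked 63, whereas *Mlxip* ranked 6661 and *Arrdc2* 8343.

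Nearest to *Txnip* were *Selenbp1* (distance 0.163), *Fam162a* (0.193), *Pfkl*, the liver-type subunit of phosphofructokinase (0.224), *Pfkfb3*, which makes the activator of phosphofructokinase (0.266), and *Higd1a*, a mitochondrial protein (0.271). *Pfkl* stood at 212 and 100.3 CPM in the NSC libraries and at 49.4 and 88.8 CPM in those labelled NSC Bmi1Over. *Arrdc4* ranked 15 from *Txnip* and *Arrdc3* ranked 59. With 4 points per gene, of which each pair belongs to a group, these distances describe the libraries and carry no test.

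**Figure D3:**
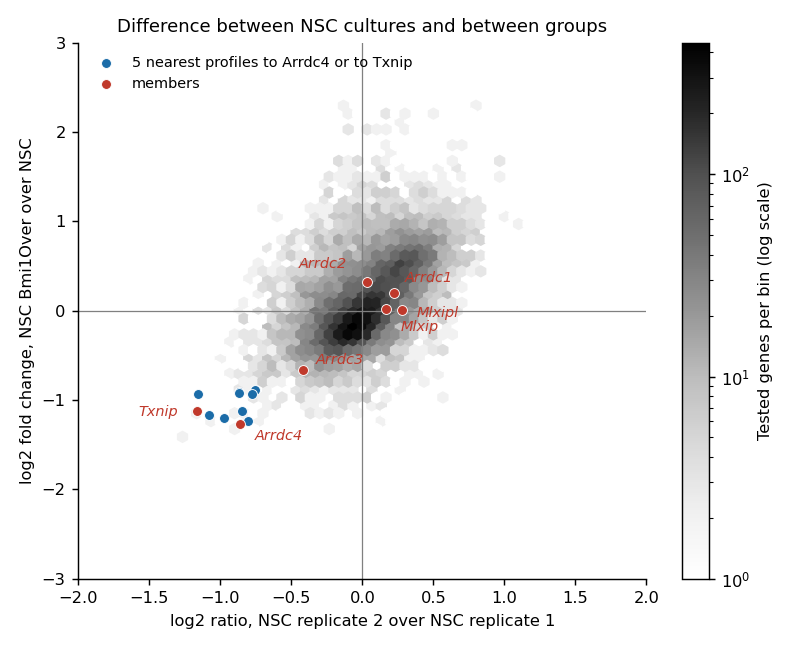
Log2 ratio between the NSC cultures (horizontal) and log2 fold change between the groups (vertical) for the genes tested, with grey bins for all genes, red points for the 7 genes and blue points for the 9 genes nearest to *Arrdc4* or *Txnip*. *Arrdc4* and *Txnip* lie at the lower left edge (-0.86 and -1.17 between NSC cultures). Both axes use the NSC libraries, so their relation is no result, and 10 genes fall outside the range drawn.

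Around the 7 genes, 10 lists of 101 genes were set for partners, targets and related families. Of these 89 were tested, 2 were called higher and none lower, which is 2.25% of those tested and close to the 2.15% of all genes. At an unadjusted p under 0.05 there were 23, or 25.8% of those tested, beside 24.2% of all genes. Of the called genes, the glucose transporter *Slc2a10* is described here.

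Among the glucose transporters and hexokinases, which move glucose into the cell and phosphorylate it, 1 of 9 tested genes was called. *Slc2a10*, encoding the facilitative transporter GLUT10, stood at 5.17 and 4.51 CPM in the NSC libraries and at 19.0 and 16.7 CPM in those labelled NSC Bmi1Over. It rose by a log2 fold change of 1.87 ± 0.18 (SE; edgeR quasi-likelihood, Benjamini-Hochberg adjusted p = 0.00613), far beyond the spread within either group, and was called under each alternative tried, with adjusted p between 9.86e-17 and 0.00770. The median log2 fold change of the list was 0.41 against -0.01 over all genes tested, with values from -1.25 to 1.87. At the low end, *Hk2*, the inducible hexokinase, which was picked after its values were seen, stood at 93.0 and 45.1 CPM against 18.7 and 38.3 CPM and was not called (adjusted p = 0.0962 by edgeR).

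Among the cargo of alpha-arrestins, the membrane proteins that they help to remove from the cell surface, all 7 tested genes had a positive log2 fold change (6 of 7 with library size alone), with a median of 0.52 against -0.01 over all genes tested. Of these, *Itgb4* (6 to 38 reads per library) and *Adrb3* (4 to 28 reads) were near the floor, with a standard error of 0.51 each. Lists described below leaned the other way. Negative values were found for 9 of 11 genes of the Mlx and Myc network and 7 of 8 ESCRT partners. The gene with the highest mean CPM, picked after its values were seen, was *F2r*, encoding the thrombin receptor PAR1, which stood at 303 and 380 CPM in the NSC libraries and at 443 and 534 CPM in those labelled NSC Bmi1Over. The groups did not overlap, but its log2 fold change of 0.52 was not called (edgeR adjusted p = 0.131).

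In the Mlx and Myc network, the dimerisation partners that compete for E-boxes, 0 of 11 tested genes were called and the median was -0.16. *Mlx*, the obligate partner of MondoA and ChREBP, differed little between the libraries, with 25.8 and 24.2 CPM in the NSC libraries and 24.8 and 23.6 CPM in those labelled NSC Bmi1Over. *Mxd4*, a Max-binding repressor, and *Myc* had the highest mean CPM of the list over the 4 libraries, with *Myc* at 113 and 121 CPM against 105 and 118 CPM. *Mxi1*, named above for its profile, stood at 35.7 and 20.7 CPM against 13.1 and 16.3 CPM, with a log2 fold change of -0.93 that was not called (edgeR adjusted p = 0.0786).

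The carbohydrate response targets, mostly enzymes of glycolysis and fat synthesis, were spread about the median of all genes. Of 15 tested, 0 were called, 8 had a positive and 7 a negative log2 fold change (6 and 9 with library size alone), and the median was 0.01 (-0.13 with library size alone, where the median gene also lay lower). *Scd2*, a stearoyl-CoA desaturase, had the highest mean CPM of the list with 4163 and 4663 CPM in the NSC libraries and 5087 and 6015 CPM in those labelled NSC Bmi1Over. *Fasn*, the fatty acid synthase, overlapped between groups with 588 and 691 CPM against 580 and 638 CPM.

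No gene was called among the proteins that work with alpha-arrestins. None of the 8 tested Nedd4 family ligases was called, with a median of -0.10, and *Nedd4* itself stood at 1229 and 1108 CPM in the NSC libraries and at 1153 and 920 CPM in those labelled NSC Bmi1Over. *Itch*, a ligase of the same family, had a log2 fold change of -0.30. Of the ESCRT partners, which complete the budding of vesicles, 0 of 8 were called and the median was -0.17, with *Pdcd6ip* (ALIX) at -0.12 and *Chmp4b* at -0.39. The thioredoxin system had 0 of 5 called and a median of -0.16, and *Txn1*, the thioredoxin bound by Txnip, stood at 1018 and 1065 CPM against 1499 and 946 CPM. *Txnrd1*, the cytosolic thioredoxin reductase, had a log2 fold change of -0.16.

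The kinase AMPK, which marks Txnip for degradation when energy is short, had 0 of 7 tested subunits and upstream kinases called and a median of -0.01. Its upstream kinase *Stk11* and its catalytic subunit *Prkaa1* had log2 fold changes of 0.11 and 0.02. Among 14 glucocorticoid and FoxO genes, a list that includes known inducers of alpha-arrestins, 0 were called and the median was -0.17. *Ddit4*, an inhibitor of mTORC1 signalling, had the lowest value with 210 and 113 CPM in the NSC libraries and 50.7 and 81.2 CPM in those labelled NSC Bmi1Over, but its log2 fold change of -1.28 was not called (edgeR adjusted p = 0.0639). *Irs2*, the insulin receptor substrate, stood at 99.3 and 103 CPM against 115 and 121 CPM.

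The remaining arrestins had 0 of 5 tested genes called and a median of -0.21. *Vps26b* and *Vps26a*, retromer subunits with an arrestin fold, had log2 fold changes of -0.42 and -0.21. *Arrdc5*, the last alpha-arrestin, had a single read in the 4 libraries, and was not tested, like the cone arrestin *Arr3*.

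**Figure D4:**
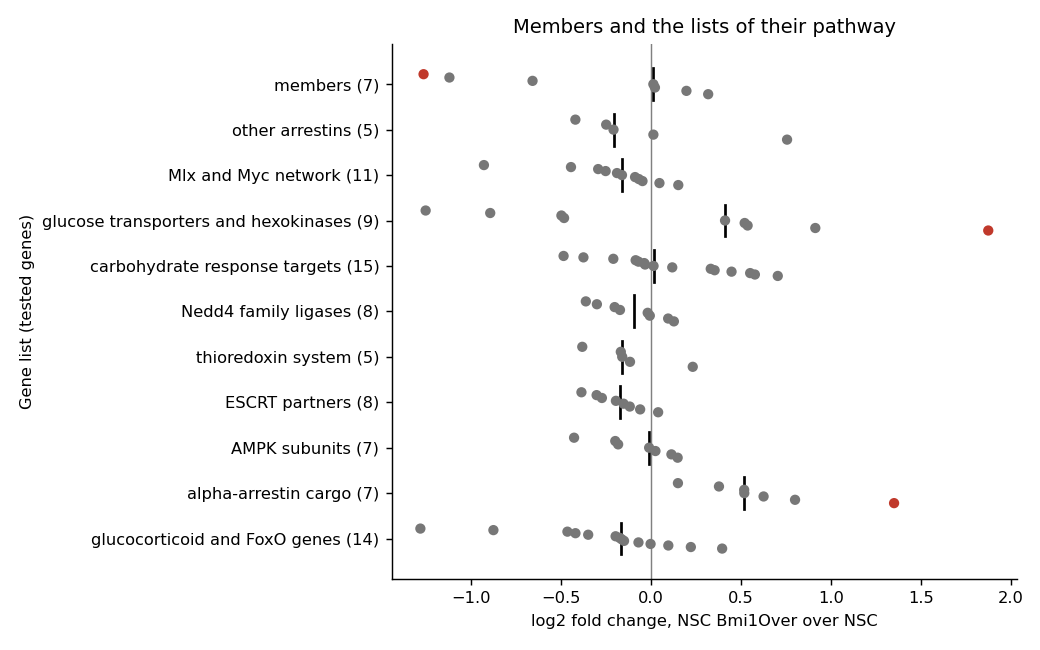
Log2 fold change, NSC Bmi1Over over NSC, of the 7 genes (top row, labelled members) and of the tested genes of the 10 lists, with a point per gene, called genes in red and the median of each list as a black bar. *Slc2a10* (1.87) has the highest value of the lists, and the cargo list lies to the right of 0, except for 1 gene when library size alone is used.

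H3K27me3 was examined last, as a measure that did not enter the choice of the genes. A gene counted as marked if any of its start sites had a broad peak no more than 5 kb away. *Txnip* and *Mlxipl* were marked in both peak lists, and the other 5 genes in neither. Of 21951 protein-coding genes, 8.86% were marked in the NSC list and 4.39% in the NSC Bmi1Over list. With a single library per condition these are values without a replicate check, and the lists do not give their depth. The methods state read totals for both ChIPSeq replicas of each condition, and that the weaker replica was discarded, without naming the totals of the libraries kept. The larger total was higher for NSC than for NSC Bmi1Over, and the smaller total was lower. Read number was among the criteria for discarding. A difference in depth between the lists was not tested as a part of the differences in peaks below.

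At *Mlxipl*, a peak of 688 bp in NSC, at chr5:135089360-135090047, covered the start site and the whole of the window printed above. It had a fold enrichment of 3.94 and −log10 q of 2.53 in the list. In the NSC Bmi1Over list the start lay under a shorter peak of 200 bp, at chr5:135089861-135090060, enriched 5.44-fold at a −log10 q of 4.12. The NSC list had another peak of 238 bp upstream, between -1729 and -1492 bp from the start, and one more of 388 bp inside the gene, 514 bp from an internal start site. *Mlxipl* was the gene with the lowest level and the only one of the 7 with a peak on its start. *Arrdc1*, with the next lowest level, had no peak within 5 kb in either list. How the mark relates to the level was not tested.

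At *Txnip* the peaks lay upstream of the gene and overlapped no annotated gene. In NSC a peak of 1931 bp lay between -6420 and -4490 bp from the start with a fold enrichment of 4.73, and another of 514 bp between -4301 and -3788 bp with a fold enrichment of 4.61. The remaining NSC peak of 675 bp lay further out, from -7966 to -7292 bp. In the NSC Bmi1Over list a peak of 432 bp, between -6094 and -5663 bp, fell within the longest NSC peak, and a peak of 436 bp, between -4181 and -3746 bp with a fold enrichment of 4.79, overlapped the 514 bp peak. The printed *Txnip* window held no peak in either list. The lower *Txnip* level in the libraries labelled NSC Bmi1Over stood beside shorter and fewer called peaks, in a list that marked fewer genes in general, and how the peaks relate to the level was not tested.

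The nearest peak to *Arrdc4* in NSC was one of 237 bp, 6993 bp upstream at chr7:68756234-68756470, with a fold enrichment of 5.25, outside the limit of 5 kb. In the NSC Bmi1Over list the nearest lay 799061 bp away. For *Arrdc3* the distance was 1601381 and 1603342 bp in the 2 lists, and for *Arrdc1* it was 353952 and 354085 bp. *Arrdc2* had its nearest peak at 22753 bp in NSC and 343723 bp in the NSC Bmi1Over list, and *Mlxip* at 30633 and 235191 bp. Among the genes of the lists, *Mycn*, *Hecw1*, *Foxo6* and *Tsc22d3* were marked in both peak lists, and *Arr3*, *Adrb3*, *Avpr2* and *Slc11a2* in NSC alone.

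**Figure D5:**
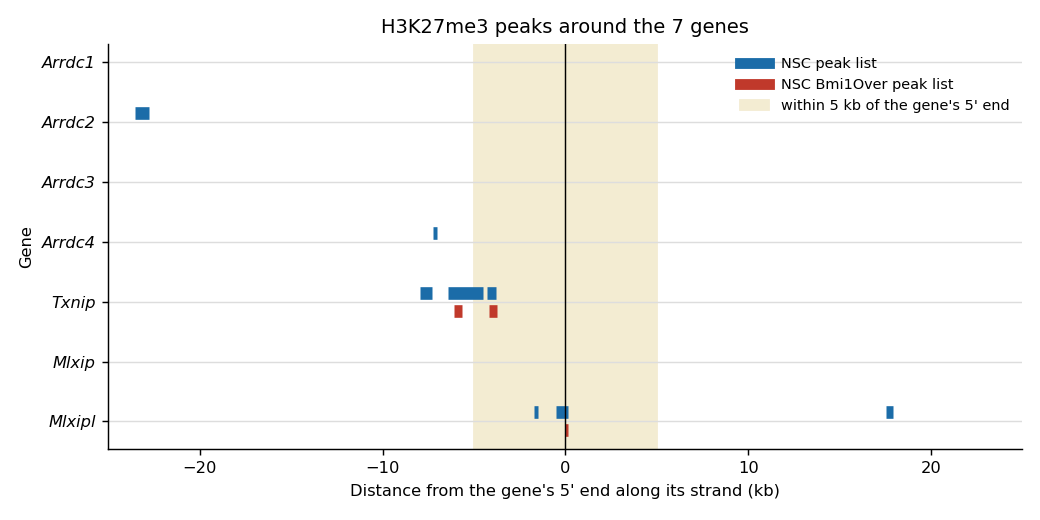
H3K27me3 peaks within 25 kb of the 5′ end of each gene, by distance along the strand of the gene (kb), with the NSC list in blue above the NSC Bmi1Over list in red and the 5 kb limit shaded. *Mlxipl* has peaks over its start in both lists, *Txnip* has upstream peaks only, and *Arrdc1*, *Arrdc3* and *Mlxip* have none in the range drawn.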

How the data were processed

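RNASeq was analysed in 2 cultures each of NSC and NSC Bmi1Over, which the study describes as biologically independent. After trimming (Trim Galore) and STAR alignment to mm10, the authors deposited the read counts of each gene as they were, unnormalised. Reads on no gene (27.8% to 34.1%) stayed out of library sizes. For ChIPSeq the authors kept 1 library per condition, aligned with Bowtie2 2.3.4 and called broad peaks with MACS2, per library, at a minimum fold of 2 and an FDR of 0.05, without the shifting model or dynamic lambda. The deposited peak lists give a fold enrichment (ratio), −log10 p-value and q-value, and a display score, which was not used.

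Symbols were mapped to identifiers by GENCODE vM21. The filterByExpr filter kept 15521 genes, whose unstranded counts entered, after TMM normalisation, an edgeR 4.0.16 (R 4.3.3, limma 3.58.1) quasi-likelihood model with the group as its only term. The biological coefficient of variation was 12.9%. RPKM used union exon lengths. Steps were tested on simulated counts. Peaks and windows were handled in Python 3.11.15 with pandas 2.3.3, and figures in matplotlib 3.10.9. Profile distances used log2 of CPM plus 0.5.

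The 7 genes and all lists were chosen with earlier results of these data known. Named genes are the 7, the called genes of each list (1 of which is not reported here) or else the 2 with the highest mean CPM, *Arrdc5*, *Mlx*, *Bmi1*, *Nes*, and the 5 profiles nearest to *Arrdc4* and to *Txnip*, while others were named after their values were seen. Alternatives were DESeq2 1.42.0, its size factors, library size alone, other filters, stranded sums, protein-coding genes, a replicate block, leaving out each culture, and for peaks a 1 kb window, stricter q and length limits and a larger overlap.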

Additional observations from a re-analysis of the deposited data

How the results depend on the processing

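The 334 calls over all genes became 1422 with DESeq2's Wald test, 537 with library size alone, 2356 without a filter on low counts, and 176 to 2546 when a culture was left out (176 without NSC replicate 1, 1461 without NSC replicate 2, 2546 without NSC Bmi1Over replicate 1). The share of higher calls was 94.3%, and 64.4% with library size alone, 80.3% without a filter. The 1 call among the 7 genes became 2 (*Arrdc3* and *Arrdc4*) with DESeq2 or library size alone, 3 (with *Txnip*) without a filter, 0 with DESeq2's size factors, at least 1 CPM in 2 libraries, stranded sums or protein-coding genes only, and 0 to 3 when a culture was left out (3 without NSC replicate 2). The 2 calls of the lists became 9 with DESeq2, 5 with library size alone, 18 without a filter and 3 to 12 when a culture was left out. The causes were not tested. The log2 fold changes of *Arrdc3*, *Arrdc4* and *Txnip* stayed negative, and those of *Arrdc1* and *Arrdc2* positive, under all alternatives run.

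With the replicate block, 3459 genes were called (70.3% higher), 3 of the 7 (*Arrdc3*, *Arrdc4* and *Txnip*) and 21 of the lists. The labels give the cultures a number but no shared batch, and deviations of libraries with the same number correlated at 0.235 across genes.

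Of the 7 genes, 1 was marked in either list with a window of 1 kb (*Mlxipl*). In NSC 1 remained at a −log10 q of at least 3 (*Txnip*) and 1 with peaks of at least 1000 bp (*Txnip*), against 0 at that length in the NSC Bmi1Over list. The number of cultures, 2 per group, limits every difference here, and the low counts of *Arrdc1* and *Mlxipl* limit theirs further.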
